A study of Mus musculus with 9 samples.

Results

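Caspase-8, its inhibitor cFLIP and their partners decide between survival and death below the tumour necrosis factor (TNF) receptor, Fas and the TRAIL receptor, and 8 genes of this pathway were followed here. They were picked by name from the 24062 genes of the count table and not by a cutoff on a measured value. Earlier results of these data were known when they were chosen. They are Cflar, Casp8, Fadd, Ripk1, Ripk3, Birc2, Birc3 and Xiap, and all 8 passed the filter on low counts.

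The cells were embryonic fibroblasts of C57BL/6 mice (tissue label: embryo) that gamma rays had made senescent, a lasting exit from the cell cycle. At 10 days after irradiation they were infected with a lentivirus that carried shRela-1, shRela-2 or shScr. Rela encodes p65, a subunit of NF-kB, and is the target of both shRela hairpins, which are independent of each other, while shScr is a scrambled hairpin. All 3 groups share the irradiation and the virus. Each group has 3 samples, sequenced from total RNA with a TruSeq v2 kit, which does not mark strand. A dataset tag stands in the titles of shScr alone, and any batch that goes with it cannot be told apart from the group. Since no label says that replicates were separate cultures, the p-values reflect the sample-to-sample spread alone, and that spread may be technical. Hairpin sequences were not used here.

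When TNF binds its receptor, RIPK1 is recruited and the ubiquitin ligases cIAP1 (Birc2) and cIAP2 (Birc3) build chains on it from which NF-kB signalling starts. If that complex fails, RIPK1 joins FADD and caspase-8, and caspase-8 starts apoptosis unless it is paired with the inactive relative cFLIP (Cflar). Where caspase-8 is blocked, RIPK1 can instead engage RIPK3 and start necroptosis, and XIAP acts further down by binding active caspases. Cflar and Birc3 are textbook targets of NF-kB, which links the loss of p65 to sensitivity to TNF in many cell types.

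Levels are given as CPM, counts scaled to a common TMM-adjusted library size. Tests are edgeR's quasi-likelihood test over 15369 genes with Benjamini-Hochberg adjustment, and a gene is said to have risen or fallen where the adjusted p is under 0.05. Total counts ran from 49774667 to 67963506 per sample. Rela averaged 13.6 ± 0.487 CPM with shRela-1, 13.9 ± 0.768 CPM with shRela-2 and 85.2 ± 1.84 CPM with shScr (SD, n = 3 each), which is 16.0% of shScr with shRela-1 and 16.3% with shRela-2. The hairpins did not differ detectably in Rela (log2 difference, shRela-1 minus shRela-2, -0.03, 95% interval -0.14 to 0.09, edgeR adjusted p = 0.726). All 10 fibroblast markers were above 1 CPM, and so were all 7 macrophage and blood markers, whose summed level was 378 to 504 CPM with shRela-1, 332 to 509 CPM with shRela-2 and 386 to 560 CPM with shScr. The fibroblast sum was 59960 to 63100 CPM with shRela-1, 52310 to 55260 CPM with shRela-2 and 53320 to 58890 CPM with shScr. A neural list, nearly all of it Tubb3, summed to 58.8 to 63.6 CPM with shRela-1, 124 to 135 CPM with shRela-2 and 88.8 to 89.6 CPM with shScr. Of its other markers, Sox2, Snap25 and Gfap were below 1 CPM. Map2 averaged 2.04 CPM with shRela-1, 2.44 CPM with shRela-2 and 1.93 CPM with shScr. A muscle list, nearly all of it Des, summed to 277 to 515 CPM with shRela-1, 165 to 292 CPM with shRela-2 and 191 to 368 CPM with shScr, with Myod1 and Myog near 0. Epithelial and endothelial lists summed to at most 20.2 and 5.79 CPM. The part of these lists in the results was not tested. Within shScr, the pairs that include replicate 2 differed most in their counts (chi-square per degree of freedom 106 and 103, against 19.1 for the other pair). In bulk RNA, fewer cells of a type and less RNA per cell cannot be told apart.

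Among the 8 genes, 2 fell with shRela-1, Cflar and Ripk3, where 24.7% of all tested genes were called. With shRela-2, Casp8 and Ripk1 rose and Birc3 fell, 3 of 8, where 30.9% were called. Both counts are near the background share. The median log2 fold change of the 8 was -0.10 with shRela-1 and -0.09 with shRela-2, beside 0.00 for all tested genes in each comparison. The CPM ranges of the groups did not overlap for 4 of the 8 with shRela-1 (39.6% of all genes) and for 5 of the 8 with shRela-2 (44.1% of all genes). Both comparisons use the same 3 shScr samples, so their values are set side by side and not correlated. 

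**Figure D1:**
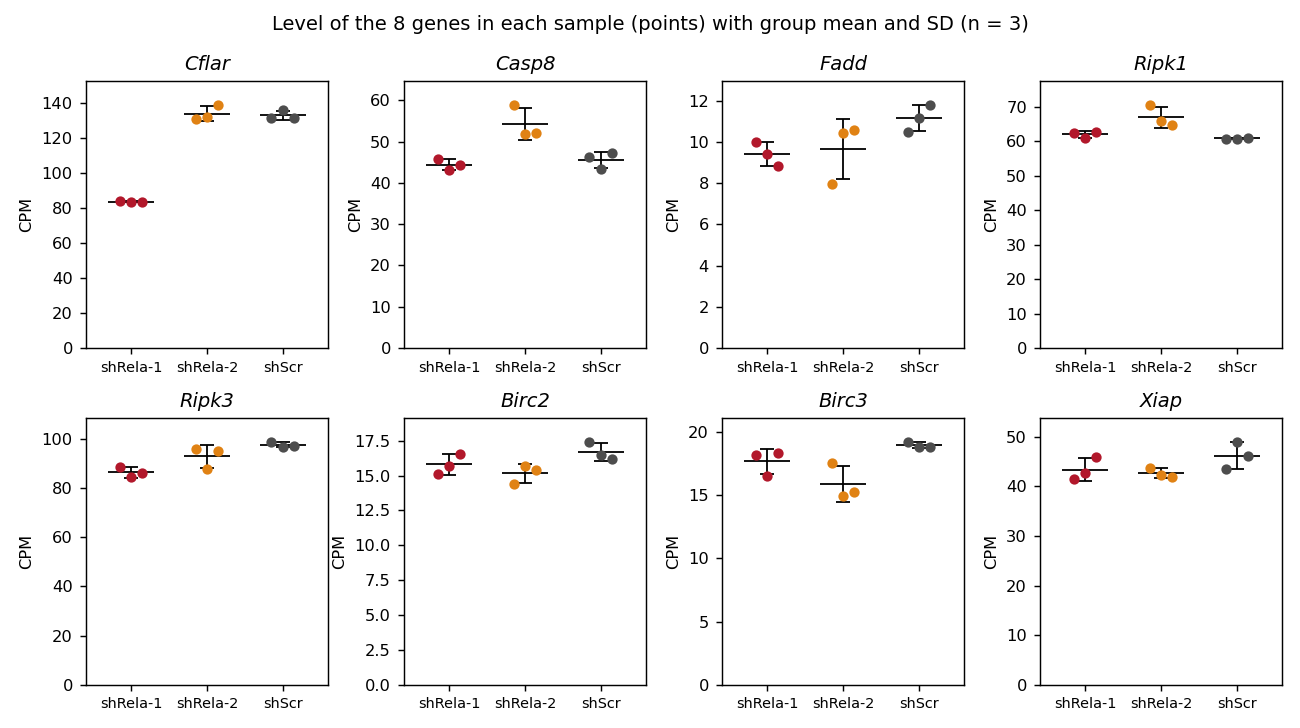
Level of each of the 8 genes in CPM (linear axis from 0) in every sample, with the group mean as a long bar and the SD as whiskers (n = 3). The 3 shRela-1 samples lie at 83.3 to 84.1 CPM for Cflar, below all samples of shRela-2 and shScr, while the groups sit much closer together for the other 7 genes.

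Cflar, which encodes cFLIP, carried the largest change of the 8 in both comparisons that involve shRela-1. It had 84.1, 83.6 and 83.3 CPM in shRela-1 replicates 1 to 3, 131, 132 and 139 CPM in shRela-2 replicates 1 to 3, and 132, 136 and 132 CPM in shScr replicates 1 to 3. Every shRela-1 sample lay far below every sample of the other groups, and the shRela-2 and shScr samples overlapped. With shRela-1 Cflar fell to 62.9% of shScr (log2 fold change -0.67 ± 0.04 SE, edgeR adjusted p = 6.09e-07), and 618 of the 15369 tested genes had a lower fold change. With shRela-2 the log2 fold change was 0.01 (95% interval -0.07 to 0.09, edgeR adjusted p = 0.865). Rela itself was reduced to a like level by both hairpins. The direct comparison of the hairpins gave a log2 difference of -0.68 ± 0.04 (shRela-1 minus shRela-2, edgeR adjusted p = 2.42e-07). The fall with shRela-1 was called in 17 of 17 alternatives (log2 -0.68 to -0.65). Leaving out shRela-2 replicate 3 gave a shRela-2 value of the other sign, -0.02.

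The start of Cflar and that of its neighbour Casp8, the 2 genes with the clearest differences between the hairpins, are shown with those of Birc3 and of Nfkbia, which encodes the NF-kB inhibitor IkB-alpha and is a textbook p65 target. Each is 250 bases before to 50 bases after a RefSeq start in GRCm38.p6, 5′ to 3′ on the gene's strand. They lie at chr1:58711241-58711540 (plus strand, Cflar), chr1:58802252-58802551 (plus strand, Casp8), chr9:7873121-7873420 (minus strand, Birc3) and chr12:55492598-55492897 (minus strand, Nfkbia). Capitals mark a match to the strict kappaB motif (GGG, any pair of bases, TTTCC) read on the opposite strand, which begins 29 bases before the Nfkbia start.
Cflar: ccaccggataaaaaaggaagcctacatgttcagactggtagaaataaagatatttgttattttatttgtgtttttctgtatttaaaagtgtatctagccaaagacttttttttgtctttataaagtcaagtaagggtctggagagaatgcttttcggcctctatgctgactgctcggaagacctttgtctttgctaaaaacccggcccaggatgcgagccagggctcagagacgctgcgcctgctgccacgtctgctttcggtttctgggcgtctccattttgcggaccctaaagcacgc
Casp8: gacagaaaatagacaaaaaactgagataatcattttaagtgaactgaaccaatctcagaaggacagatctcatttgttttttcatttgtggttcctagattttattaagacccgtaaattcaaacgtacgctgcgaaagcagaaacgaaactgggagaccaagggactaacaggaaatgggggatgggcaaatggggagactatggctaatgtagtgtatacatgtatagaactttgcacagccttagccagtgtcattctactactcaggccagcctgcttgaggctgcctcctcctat
Birc3: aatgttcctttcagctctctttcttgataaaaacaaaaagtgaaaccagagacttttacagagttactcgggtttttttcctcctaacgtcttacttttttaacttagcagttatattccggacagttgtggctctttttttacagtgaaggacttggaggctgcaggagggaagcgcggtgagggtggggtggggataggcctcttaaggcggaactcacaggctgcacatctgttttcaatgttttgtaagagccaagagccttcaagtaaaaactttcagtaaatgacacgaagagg
Nfkbia: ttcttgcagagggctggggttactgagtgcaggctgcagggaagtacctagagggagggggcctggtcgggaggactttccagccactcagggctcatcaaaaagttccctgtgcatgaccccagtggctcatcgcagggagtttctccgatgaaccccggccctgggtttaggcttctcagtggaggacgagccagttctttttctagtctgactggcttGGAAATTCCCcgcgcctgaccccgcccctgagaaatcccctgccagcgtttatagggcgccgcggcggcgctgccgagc
That motif, searched on both strands, was in 1.63% of 32851 such windows of mouse genes. A second kappaB consensus, which takes only A or G after the GGG but is looser further on, was in 4.51%. Its matches thus take in only part of those of the first motif. The 8 genes have 12 windows, and 0 of them held either motif. Of the 8 NF-kB feedback genes described further on, 5 had an entry, with 7 windows, and 4 of the windows (of Nfkb2 and Nfkbia) held the strict motif. The second consensus was in 6 of these 7 windows (of Bcl3, Nfkb2, Nfkbia and Nfkbie). A window without a match says only that these letters are not in it.

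On the gene map of GENCODE M21 (GRCm38, the same assembly as mm10), Cflar lies at chr1:58711508-58758884 and Casp8 at chr1:58795374-58847503 on the same strand, with 36489 bases between them. The Casp8 window shown begins from a RefSeq start inside that span. Birc2 at chr9:7818227-7837064 and its paralog Birc3 at chr9:7848699-7873186 are likewise neighbours, 11634 bases apart on the minus strand. Fadd is at chr7:144577318-144582463 (minus), Ripk1 at chr13:34002363-34037147 (plus), Ripk3 at chr14:55784995-55788865 (minus) and Xiap at chrX:42059679-42109656 (plus). Faddos, an antisense gene, shares 239 bases of the exons of Fadd (6.12%). Ripk1 shares 241 bases (2.89%) with Serpinb6a on the opposite strand and 511 bases (6.12%) with the pseudogene Gm17084. Reads from these stretches cannot be assigned to one gene with certainty.

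An earlier analysis of these data had linked 1 short word in the 3′UTR to lower expression with each hairpin, AGGTGTA for shRela-1 and GAAGCTA for shRela-2. Among 13883 genes, those with AGGTGTA had a median log2 fold change of -0.16 with shRela-1, against 0.01 for genes without it. Those with GAAGCTA had a median of -0.17 with shRela-2, against 0.01 for genes without it. Since the words were found in these same data, the medians restate that link and are no separate support for it. The 3′UTR of Cflar, 4962 bases in its longest form, held neither word. Ripk1 and Xiap held GAAGCTA once each, and the other members held neither. What part such words have in any of these changes was not tested.

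The 5 genes most like Cflar over the 9 samples, among 11715 whose mean log2 CPM was 1 or more, were Rap1b, Hnrnpk, Tulp4, Eif3l and Polr2m (Pearson r of log2 CPM 0.998, 0.998, 0.997, 0.997 and 0.997). All 5 had lower means in shRela-1 than in either other group. Rap1b averaged 85.1 ± 2.31 CPM with shRela-1, 160 ± 4.65 CPM with shRela-2 and 158 ± 5.17 CPM with shScr (SD, n = 3 each). The coefficients rest on 3 groups of samples that share libraries and are a description.

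Casp8, the initiator caspase that cFLIP holds in check, was higher in the shRela-2 samples. It had 45.8, 43.0 and 44.3 CPM in shRela-1 replicates 1 to 3, 58.8, 51.9 and 52.0 CPM in shRela-2 replicates 1 to 3, and 46.2, 43.3 and 47.1 CPM in shScr replicates 1 to 3. All 3 shRela-2 samples lay above all others, replicate 1 the highest, and shRela-1 and shScr overlapped. With shRela-2 Casp8 rose by 0.25 ± 0.06 on the log2 scale (edgeR adjusted p = 0.00573). With shRela-1 the log2 fold change was -0.04 (95% interval -0.16 to 0.09, edgeR adjusted p = 0.698). The hairpins differed by -0.29 ± 0.06 (shRela-1 minus shRela-2, edgeR adjusted p = 0.00184), and both calls held in 17 of 17 alternatives.

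The ratio of Cflar to Casp8 was taken per length of exon, with annotated exon unions of 12669 bases for Cflar and 2893 bases for Casp8. Its size depends on these lengths, which are the same in every sample, so only its differences between groups are read here. The ratio, both genes as CPM per kilobase, was 0.419, 0.443 and 0.429 in shRela-1 replicates 1 to 3, 0.510, 0.582 and 0.610 in shRela-2 replicates 1 to 3, and 0.651, 0.718 and 0.638 in shScr replicates 1 to 3. The 3 groups did not overlap, with shRela-1 lowest and shScr highest. The ratio averaged 0.431 ± 0.0123 with shRela-1, 0.567 ± 0.0518 with shRela-2 and 0.669 ± 0.0431 with shScr (SD, n = 3 each). An exact two-sided permutation test gave p = 0.1 for each of the 3 comparisons (0.1 after Benjamini-Hochberg adjustment), the smallest that 3 samples against 3 allow. The ratio was chosen after these values had been seen. Groups that do not overlap always give this p, so the test adds nothing to the values. With shRela-1 it was the Cflar level that differed from shScr, and with shRela-2 the Casp8 level.

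Fadd, the adaptor between death receptors and caspase-8, had the fewest counts of the 8. It had 9.98, 9.40 and 8.83 CPM in shRela-1 replicates 1 to 3, 7.99, 10.5 and 10.6 CPM in shRela-2 replicates 1 to 3, and 10.5, 11.2 and 11.8 CPM in shScr replicates 1 to 3. The shRela-1 samples lay below all shScr samples, while shRela-2 overlapped shScr. The log2 fold change was -0.25 ± 0.11 with shRela-1 (edgeR adjusted p = 0.133, and 0.0339 with the replicate number as a block) and -0.20 ± 0.11 with shRela-2 (edgeR adjusted p = 0.194). Without shRela-2 replicate 1 the shRela-1 value passed as well (edgeR adjusted p = 0.0457).

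Ripk1, the kinase at the fork between survival and death signalling, had 62.3, 60.9 and 62.5 CPM in shRela-1 replicates 1 to 3, 70.4, 65.9 and 64.5 CPM in shRela-2 replicates 1 to 3, and 60.7, 60.6 and 60.9 CPM in shScr replicates 1 to 3. The shRela-2 samples lay above all others, by a small margin, and shRela-1 overlapped shScr. With shRela-2 Ripk1 rose by 0.14 ± 0.04 on the log2 scale (edgeR adjusted p = 0.0148). Without shRela-2 replicate 1, its highest sample, this value was 0.10 and missed the threshold (edgeR adjusted p = 0.0595). With shRela-1 the log2 fold change was 0.03 (95% interval -0.05 to 0.11, edgeR adjusted p = 0.649).

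Ripk3, the kinase of necroptosis, had 88.5, 84.3 and 86.1 CPM in shRela-1 replicates 1 to 3, 95.9, 87.5 and 95.02 CPM in shRela-2 replicates 1 to 3, and 98.6, 96.8 and 97.0 CPM in shScr replicates 1 to 3. Every knockdown sample lay below every shScr sample, and the hairpins overlapped. With shRela-1 Ripk3 fell by 0.18 ± 0.04 on the log2 scale (edgeR adjusted p = 0.0104), a call made in 17 of 17 alternatives. With shRela-2 the log2 fold change was -0.07 ± 0.04 (edgeR adjusted p = 0.231). The difference between the hairpins was -0.10 ± 0.04 (shRela-1 minus shRela-2, edgeR adjusted p = 0.0657), which passed with the replicate block (edgeR adjusted p = 0.0135) and without shRela-2 replicate 2 (0.0161).

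Of the 3 inhibitors of apoptosis, 1 was called. Birc3, which encodes cIAP2, had 18.2, 16.5 and 18.3 CPM in shRela-1 replicates 1 to 3, 17.5, 14.95 and 15.3 CPM in shRela-2 replicates 1 to 3, and 19.2, 18.8 and 18.8 CPM in shScr replicates 1 to 3. All knockdown samples lay below all shScr samples. With shRela-2 Birc3 fell by 0.25 ± 0.07 on the log2 scale (edgeR adjusted p = 0.0236), and with shRela-1 the value was -0.10 ± 0.07 (edgeR adjusted p = 0.370). The fall with shRela-2 missed the threshold without shRela-2 replicate 2 (edgeR adjusted p = 0.0904) or 3 (0.0778) and without shScr replicate 1 (0.0620) or 3 (0.0575). Between the hairpins the difference was 0.15 ± 0.07 (shRela-1 minus shRela-2, edgeR adjusted p = 0.125, and 0.0427 with the replicate block). It also passed without shRela-2 replicate 1 (edgeR adjusted p = 0.0258).

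Birc2, which encodes cIAP1, averaged 15.8 ± 0.725 CPM with shRela-1, 15.2 ± 0.678 CPM with shRela-2 and 16.7 ± 0.635 CPM with shScr (SD, n = 3 each). The shRela-2 samples lay below all shScr samples, but neither comparison passed (log2 -0.08 ± 0.06 with shRela-1, edgeR adjusted p = 0.414, and -0.14 ± 0.06 with shRela-2, edgeR adjusted p = 0.131). Xiap, the direct inhibitor of active caspases, averaged 43.4 ± 2.36 CPM with shRela-1, 42.6 ± 0.972 CPM with shRela-2 and 46.2 ± 2.72 CPM with shScr. Its groups overlapped. The log2 fold change of Xiap was -0.09 ± 0.05 with shRela-1 (edgeR adjusted p = 0.251) and -0.12 ± 0.05 with shRela-2 (edgeR adjusted p = 0.128, and 0.0468 with the replicate block).

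**Figure D2:**
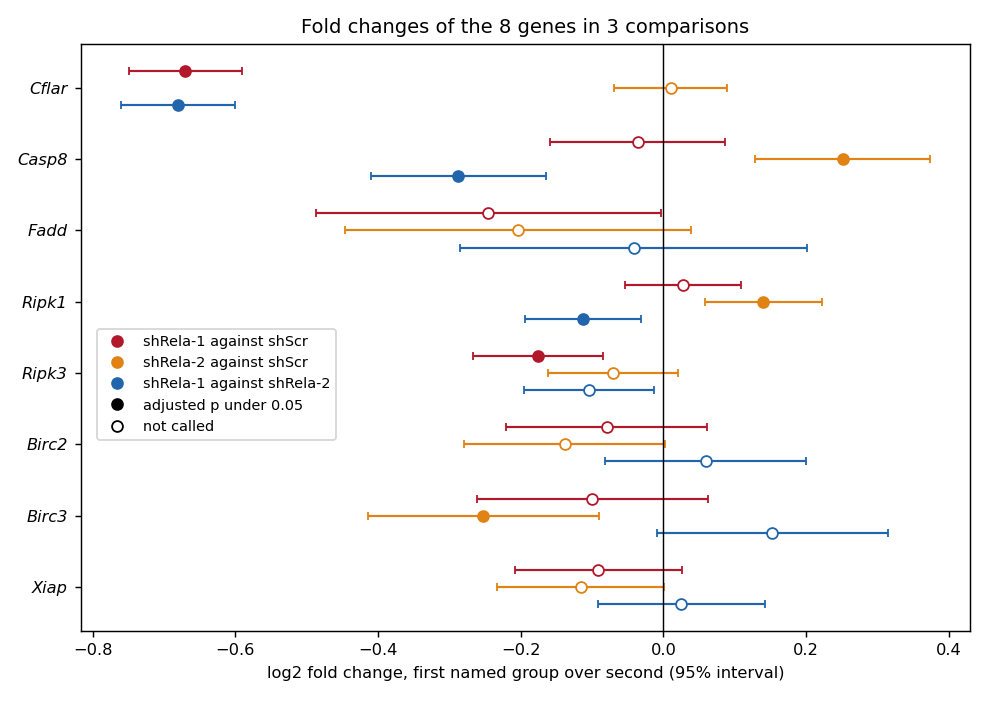
Log2 fold change of each of the 8 genes (horizontal axis, first named group over second) with its 95% interval from the edgeR fit, for each hairpin against shScr and for shRela-1 against shRela-2; filled points have an adjusted p under 0.05. Cflar stands at -0.67 with shRela-1 and at 0.01 with shRela-2, while the next value in size outside Cflar is -0.29, for Casp8 between the hairpins.

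In the direct comparison of the hairpins 3 of the 8 genes were called, Cflar, Casp8 and Ripk1, each lower with shRela-1, where 39.9% of all tested genes were called (19.9% higher and 20% lower). The groups of the same 3 genes did not overlap, which held for 50.1% of all genes. The median log2 difference of the 8 was -0.07 (shRela-1 minus shRela-2), beside 0.00 over all tested genes. For Ripk1 it was -0.11 ± 0.04 (edgeR adjusted p = 0.0323). The Ripk1 call was lost without shRela-1 replicate 1 (edgeR adjusted p = 0.0721), 2 (0.110) or 3 (0.0660), without shRela-2 replicate 1 (0.132) or 2 (0.0507) and without shScr replicate 2 (0.05003). With the replicate block the count was 5 of 8, with Ripk3 lower and Birc3 higher in shRela-1, where the block called 51.9% of all genes.

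**Figure D3:**
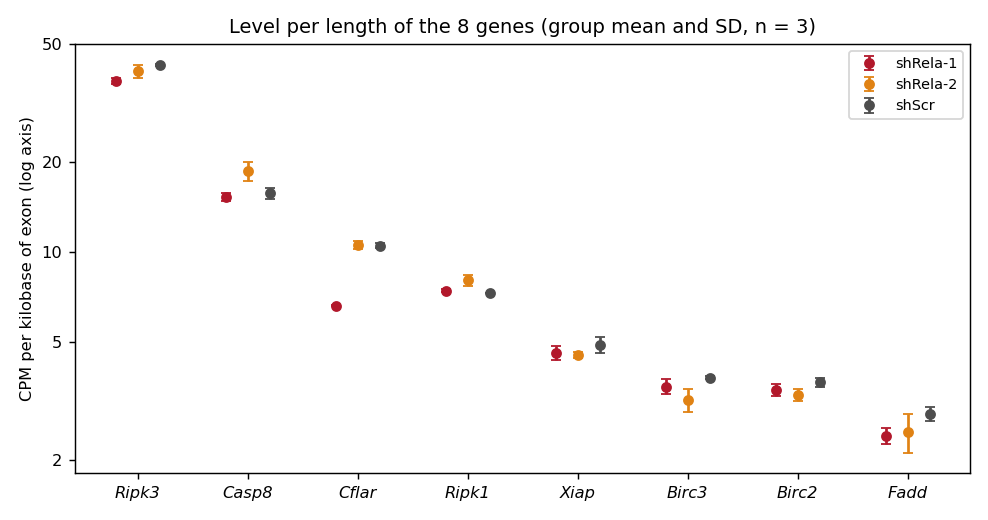
Level of the 8 genes per length, as CPM per kilobase of exon on a log axis, with group mean and SD (n = 3) for shRela-1, shRela-2 and shScr. Ripk3 is highest and Fadd lowest in all 3 groups, and Cflar lies above Ripk1 in shRela-2 and shScr but below it in shRela-1.

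On that per-length scale Ripk3 was the most abundant, at 37.7 ± 0.913 with shRela-1, 40.5 ± 2.02 with shRela-2 and 42.5 ± 0.449 with shScr (CPM per kilobase, SD, n = 3 each). Casp8 followed at 15.4 ± 0.483 with shRela-1, 18.7 ± 1.36 with shRela-2 and 15.7 ± 0.692 with shScr. Cflar had 6.60 ± 0.0320 with shRela-1, 10.6 ± 0.327 with shRela-2 and 10.5 ± 0.205 with shScr. Ripk1, at 7.42 ± 0.108 with shRela-1, 8.02 ± 0.364 with shRela-2 and 7.28 ± 0.0206 with shScr, thus stood below Cflar in the shRela-2 and shScr groups and above it in shRela-1. Xiap, Birc3, Birc2 and Fadd followed at group means of 4.50 to 4.88, 3.18 to 3.78, 3.31 to 3.65 and 2.41 to 2.86 CPM per kilobase. The levels of Birc2 and Birc3 differed from each other by less than their spread within each knockdown group. The lengths are unions of annotated exons, so a gene that uses a short transcript is understated, and the order of the genes, Cflar against Ripk1 included, rests on these lengths.

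Around the 8 genes, 84 further genes of the pathway were listed in 7 groups by role, and 81 passed the filter on low counts. Fasl, Edar and Naip6 did not, with 4, 34 and 48 counts over the 9 samples. With shRela-1, 11 of the 81 rose and 21 fell. With shRela-2, 16 rose and 17 fell. These numbers include a comparison group of 8 NF-kB feedback genes, of which 5 fell with shRela-1 and 6 with shRela-2. The replicate block raised the 11 to 17, where it called 20.4% of all genes upwards. The number was 5 without shRela-1 replicate 2, 6 without shRela-1 replicate 3, shScr replicate 1 or shScr replicate 3, and 7 without shScr replicate 2. It was 6 with only the 2 groups fitted. Apart from Tnf and Fas, the genes named below are among those with the smallest p in each group and comparison. The counts for each group are read beside the shares of all genes, 12.3% up and 12.4% down with shRela-1 and 15.4% each way with shRela-2.

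**Figure D4:**
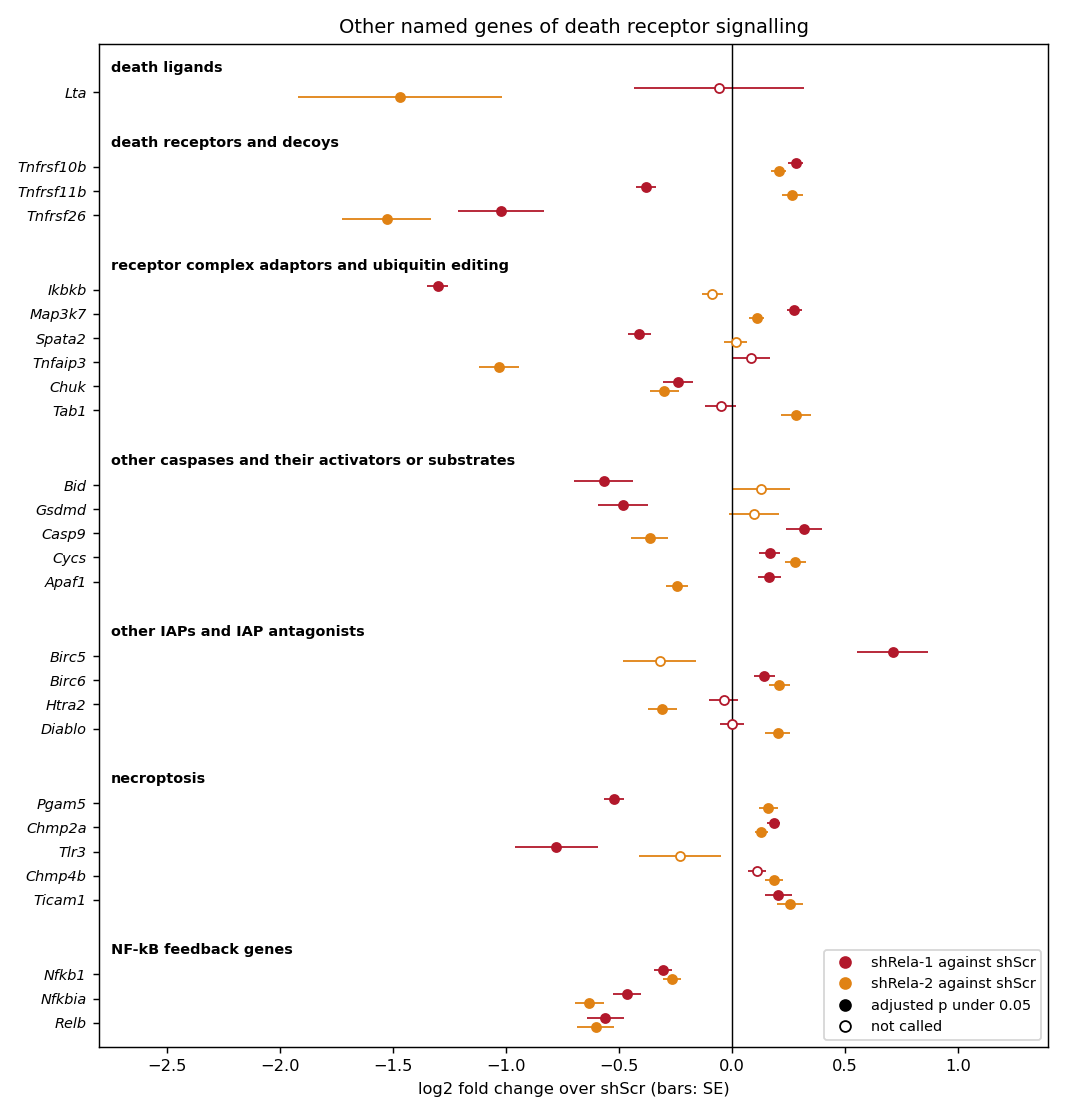
Log2 fold change over shScr (horizontal axis, bars are the SE of the edgeR fit) of 27 named pathway genes, grouped by role, for shRela-1 and shRela-2; filled points have an adjusted p under 0.05. The 3 NF-kB feedback genes lie left of 0 with both hairpins, while Casp9, Apaf1, Tnfrsf11b and Pgam5 have filled points on opposite sides of 0.

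Of the 4 death ligands tested, 0 passed with shRela-1 by edgeR, by DESeq2 or by limma voom, and 0 at an unadjusted p under 0.05. With shRela-2 Lta, which encodes lymphotoxin alpha, was called, but on 4, 4 and 2 counts in shRela-2 replicates 1 to 3, against 9, 11 and 10 counts in shScr replicates 1 to 3. Its log2 fold change was -1.47 ± 0.45 (edgeR adjusted p = 0.0312), and the call was lost with no filter (edgeR adjusted p = 0.0821), with the replicate block (0.0577), and without any 1 of the shRela-2 or shScr replicates (0.0520 to 0.0983). Without shRela-1 replicate 1 it did not pass the filter on low counts. With shRela-2, DESeq2, only the 2 groups fitted, and a filter of CPM above 1 in at least 3 samples each called 0 ligands. With the replicate block, and without shScr replicate 1, 1 ligand other than Lta fell with shRela-2. Tnf, with 17 to 80 counts per sample, was not called in the main fit. Its log2 fold change was -0.54 with shRela-1 (edgeR adjusted p = 0.339) and -0.73 with shRela-2 (edgeR adjusted p = 0.184). Of the 12 death receptors and decoy receptors tested, 3 rose and 3 fell with shRela-1, and 3 rose and 1 fell with shRela-2. Fas was among the rises with shRela-1 (log2 0.40 ± 0.13, edgeR adjusted p = 0.0492), near the threshold and with overlapping groups. With shRela-2 the log2 fold change of Fas was -0.04. Only 1 of the 3 rises with shRela-1 was left once shRela-1 replicate 2 or 3, replicate 1 of shRela-2 or replicate 1 of shScr was left out. With only the 2 groups fitted, 1 of these rises was left as well. Tnfrsf10b, the mouse TRAIL death receptor, rose with both hairpins, at 137.5 ± 2.48 CPM with shRela-1, 131 ± 1.78 CPM with shRela-2 and 113 ± 0.898 CPM with shScr (log2 0.28 ± 0.03 with shRela-1, edgeR adjusted p = 0.000155, and 0.21 ± 0.03 with shRela-2, edgeR adjusted p = 0.000883). Tnfrsf26 fell with both, to 4.055 ± 0.821 CPM with shRela-1 and 2.85 ± 0.786 CPM with shRela-2, against 8.22 ± 0.876 CPM with shScr. Tnfrsf11b, which encodes the soluble decoy receptor osteoprotegerin, went opposite ways. It averaged 63.2 ± 2.82 CPM with shRela-1, 99.2 ± 4.55 CPM with shRela-2 and 82.4 ± 2.01 CPM with shScr (log2 -0.38 with shRela-1 and 0.27 with shRela-2). The hairpins differed by -0.65 ± 0.05 (shRela-1 minus shRela-2, edgeR adjusted p = 1.58e-06).

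Of 23 adaptors and ubiquitin-editing enzymes of the receptor complex, 1 rose and 6 fell with shRela-1, and 4 rose and 4 fell with shRela-2. The 4 became 10 with the replicate block, which called 22.2% of all genes upwards with shRela-2, and 2 without shRela-2 replicate 2. The single rise with shRela-1, which became 3 with the block, was Map3k7, the kinase TAK1 (log2 0.28). Map3k7 also rose with shRela-2 (log2 0.11, edgeR adjusted p = 0.0296), a call lost without shRela-2 replicate 2 or 3, without any 1 shScr replicate and with no filter (0.0523 to 0.0940). Ikbkb, which encodes the kinase IKK-beta that releases NF-kB, had the largest fall of those named here, to 20.8 ± 0.734 CPM with shRela-1, against 51.3 ± 1.71 CPM with shScr (log2 -1.30 ± 0.05, edgeR adjusted p = 5.68e-08). With shRela-2 it averaged 48.3 ± 1.99 CPM (log2 -0.09, edgeR adjusted p = 0.187), and the hairpins differed by -1.22 ± 0.05 (shRela-1 minus shRela-2). Tnfaip3, which encodes the ubiquitin-editing enzyme A20 and is a textbook NF-kB target, showed the opposite split. It averaged 15.6 ± 0.583 CPM with shRela-1, 7.19 ± 0.784 CPM with shRela-2 and 14.7 ± 0.855 CPM with shScr (log2 0.08 with shRela-1, edgeR adjusted p = 0.538, and -1.03 with shRela-2, edgeR adjusted p = 1.76e-05). Chuk, which encodes IKK-alpha, fell with both hairpins (log2 -0.24 with shRela-1 and -0.30 with shRela-2). The Chuk call with shRela-1 was lost without shRela-1 replicate 2 (edgeR adjusted p = 0.0678) or shScr replicate 1 (0.0582) or 3 (0.0556). Spata2, which brings the deubiquitinase CYLD to the complex, fell with shRela-1 (log2 -0.41), and Tab1, a partner of TAK1, rose with shRela-2 (log2 0.28).

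Of 14 other caspases and their activators or substrates, 3 rose and 4 fell with shRela-1, and the same numbers with shRela-2. Bid, the caspase-8 substrate that carries the signal to mitochondria, fell with shRela-1 to 13.1 ± 1.51 CPM, against 19.3 ± 3.17 CPM with shScr (log2 -0.57 ± 0.13, edgeR adjusted p = 0.00971). With shRela-2 Bid averaged 21.2 ± 2.55 CPM (log2 0.13, edgeR adjusted p = 0.504). Gsdmd, which encodes the pore-forming protein of pyroptosis, also fell with shRela-1 (log2 -0.48). Casp9, the initiator of the mitochondrial route, moved in opposite directions, up with shRela-1 and down with shRela-2. It averaged 15.5 ± 1.003 CPM with shRela-1, 9.62 ± 0.731 CPM with shRela-2 and 12.4 ± 0.663 CPM with shScr (log2 0.32 with shRela-1 and -0.36 with shRela-2). Apaf1, the scaffold on which caspase-9 is activated, did the same at smaller size (log2 0.17 with shRela-1 and -0.24 with shRela-2). Cycs, which encodes cytochrome c, rose with both (log2 0.17 with shRela-1 and 0.28 with shRela-2). Without shRela-1 replicate 2 or 3, 1 rise and 2 falls were left with shRela-1. Without shScr replicate 1, 2 falls were left, and without shScr replicate 3 the rises numbered 0 with shRela-1 and 1 with shRela-2 (with all 9 samples, unadjusted p was under 0.05 for 4 of the 14 upwards with shRela-1). The Casp9 call with shRela-1 was among those lost, without shRela-1 replicate 2 (edgeR adjusted p = 0.0603) or shScr replicate 3 (0.0630). So were that of Apaf1, without shRela-1 replicate 2 or 3 or shScr replicate 1 or 3 (edgeR adjusted p = 0.0714 to 0.107), and that of Cycs, without shRela-1 replicate 1 or 3 or shScr replicate 2 or 3 (0.0595 to 0.0865). The Apaf1 call with shRela-1 was also lost with only the 2 groups fitted (edgeR adjusted p = 0.0637).

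Of 10 other IAPs and IAP antagonists, 2 rose with shRela-1, and 2 rose and 1 fell with shRela-2. Birc5, which encodes survivin and is best known for its role in cell division, averaged 10.2 ± 2.47 CPM with shRela-1, 4.99 ± 0.556 CPM with shRela-2 and 6.23 ± 0.334 CPM with shScr (log2 0.71 ± 0.16 with shRela-1, edgeR adjusted p = 0.00784). With shRela-2 its log2 fold change was -0.32 (edgeR adjusted p = 0.165, and 0.0206 with the replicate block). Birc6, a large ubiquitin ligase that inhibits caspases, rose with both hairpins (log2 0.14 with shRela-1, edgeR adjusted p = 0.0442, and 0.21 with shRela-2, edgeR adjusted p = 0.00551). With shRela-1, 1 of the 2 rises was left without shRela-1 replicate 2 or 3, any 1 shRela-2 replicate, or shScr replicate 1 or 2. The Birc6 call with shRela-1 was also lost with only the 2 groups fitted (edgeR adjusted p = 0.0816). The mitochondrial IAP antagonists Htra2 and Diablo were called against shScr with shRela-2 and not with shRela-1, Htra2 lower (log2 -0.31) and Diablo higher (log2 0.20), and both differed between the hairpins (log2 0.27 for Htra2 and -0.20 for Diablo, shRela-1 minus shRela-2). The Diablo call against shScr was lost without shRela-2 replicate 1 (edgeR adjusted p = 0.0561) or 2 (0.0651) or shScr replicate 2 (0.0621). Its call between the hairpins was lost without shRela-1 replicate 1 (edgeR adjusted p = 0.0507) or 3 (0.0503) or shRela-2 replicate 2 (0.0506).

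Of 10 further necroptosis genes, 2 rose and 3 fell with shRela-1, and 4 rose with shRela-2. Only 1 of the 2 rises with shRela-1 was left without shRela-1 replicate 1 or 2 or any 1 shScr replicate. Pgam5, a mitochondrial phosphatase linked to necroptosis, averaged 31.5 ± 0.825 CPM with shRela-1, 50.6 ± 1.68 CPM with shRela-2 and 45.2 ± 1.67 CPM with shScr, so that it fell with shRela-1 (log2 -0.52) and rose with shRela-2 (log2 0.16). The rise of Pgam5 missed the threshold without shRela-2 replicate 2 (edgeR adjusted p = 0.0587) or 3 (0.0550) or shScr replicate 1 (0.0552). Tlr3, the receptor for double-stranded RNA, fell with shRela-1 (log2 -0.78), while its adaptor Ticam1 rose with both hairpins (log2 0.21 with shRela-1 and 0.26 with shRela-2). The Ticam1 call with shRela-1 was lost without shRela-1 replicate 1 or 2 or any 1 shScr replicate (edgeR adjusted p = 0.0569 to 0.105). It was also lost with only the 2 groups fitted (edgeR adjusted p = 0.0507). Chmp2a, a subunit of the ESCRT-III complex that repairs membranes, also rose with both (log2 0.18 with shRela-1 and 0.13 with shRela-2). Chmp4b of the same complex rose with shRela-2 (log2 0.18), and its shRela-1 value (log2 0.11, edgeR adjusted p = 0.0669) passed with the replicate block (0.00432). That value also passed with DESeq2 (adjusted p = 0.0358) and with limma voom (adjusted p = 0.0497).

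The last of the 7 groups, listed as NF-kB feedback genes, served as a comparison for the p65 knockdown and is part of the 84. It holds Nfkbia, Nfkbie, Nfkb1, Nfkb2, Relb, Bcl3, Icam1 and Vcam1. Icam1 and Vcam1 encode adhesion molecules and not feedback regulators, and Tnfaip3 was listed with the adaptors. Of these 8 genes 5 fell with shRela-1 and 6 with shRela-2, with median log2 fold changes of -0.24 with shRela-1 and -0.43 with shRela-2. Nfkbia averaged 22.2 ± 1.73 CPM with shRela-1, 19.8 ± 0.388 CPM with shRela-2 and 30.6 ± 1.196 CPM with shScr (log2 -0.46 ± 0.06 with shRela-1, edgeR adjusted p = 0.000387, and -0.63 ± 0.06 with shRela-2, edgeR adjusted p = 4.59e-05). Relb, which encodes another NF-kB subunit, averaged 13.7 ± 1.08 CPM with shRela-1, 13.3 ± 0.958 CPM with shRela-2 and 20.2 ± 1.27 CPM with shScr (log2 -0.56 with shRela-1 and -0.60 with shRela-2). Nfkb1, the gene of p105 and p50, also fell with both hairpins (log2 -0.31 with shRela-1 and -0.26 with shRela-2).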

How the data were processed

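The deposited table holds raw counts for each gene symbol in 1 column per sample. The submitters' processing notes list featureCounts 1.4.6 and Subread, the aligners Bowtie2 2.2.6 and TopHat2 2.0.14, and the build mm10, with no settings. In the deposited counts 2764 values were 1 and 7984 were 2, so mates of a pair may have been counted separately; the sources used here do not say. Of 24062 genes, 3924 had no count. All 9 columns were used, and groups were taken from the titles.

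Counts were fitted with edgeR 4.0.16 in R 4.3.3 (TMM factors 0.976 to 1.02, filterByExpr, 1 mean per group over all 9 samples, 6 residual degrees of freedom, two-sided), and the procedure was tested on simulated data. The standard error of a log2 fold change was derived from the F statistic. Benjamini-Hochberg adjustment ran over all 15369 genes tested. DESeq2 1.42.0, limma 3.58.1 voom, other scalings and filters, a fit of only the groups compared, a replicate block and leaving out each sample were alternatives. Exon lengths are from GENCODE M21 (GRCm38) and promoters from RefSeq (GRCm38.p6); 12 member windows matched by symbol. Of the genes listed, 2 pathway genes and 1 marker were found under older symbols.

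Replicate numbers come from the titles. Deviations from the group means correlated at 0.442 to 0.747 in the 9 same-numbered pairs and at -0.573 to 0.161 in the 18 others. Same-numbered samples thus varied together, a property of the data that the labels do not state. Only the replicate block used this pairing. The main fit and the permutation test of the ratio treated the samples as unpaired.

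The members, the lists and the tests were chosen with earlier results of these data known. Named were the members, Rela, up to 3 called genes with the smallest p in each pathway list and comparison with shScr, and the 5 genes most like Cflar, of which 1 pathway gene is left unreported. Tnf and Fas are given besides these, and statements about named genes do not cover them.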

Additional observations from a re-analysis of the deposited data

Results flagged for a closer look

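The effects of the hairpins against shScr differed by the direct test for 3 members and 16 of the 27 other pathway genes named. That test compares the hairpins with each other, with a call at an adjusted p under 0.05 in the edgeR fit. All values are log2 differences, shRela-1 minus shRela-2. Among the members they were -0.68 for Cflar, -0.29 for Casp8 and -0.11 for Ripk1. Among ligands and receptors they were 1.41 for Lta, which rests on at most 11 counts per sample, and -0.65 for Tnfrsf11b. Among adaptors they were -1.22 for Ikbkb, 0.17 for Map3k7, -0.43 for Spata2, 1.12 for Tnfaip3 and -0.33 for Tab1. Among caspases and their partners they were -0.70 for Bid, -0.58 for Gsdmd, 0.68 for Casp9 and 0.41 for Apaf1. Among IAPs and their antagonists they were 1.03 for Birc5, 0.27 for Htra2 and -0.20 for Diablo. Among necroptosis genes they were -0.68 for Pgam5 and -0.55 for Tlr3. The Tlr3 difference was -0.35 without shRela-1 replicate 1 (adjusted p = 0.0885), and its call was also lost without shRela-2 replicate 1 (0.0694) or 2 (0.122), without shScr replicate 3 (0.0545) and with only the 2 groups fitted (0.0575). That of Lta was lost without shRela-1 replicate 2 (0.0515) or 3 (0.0629) and without shRela-2 replicate 2 (0.0690) or 3 (0.0959). The Lta call was also lost with no filter (edgeR adjusted p = 0.0773) and with DESeq2 (adjusted p = 0.103). Of all 15369 genes tested, 39.9% differed in this comparison, and of the 81 pathway genes tested 29 did (35.8%). The named genes were picked for a call against shScr with at least 1 hairpin, so their share is not comparable with these.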

How the results depend on the processing

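With the replicate block, the genes called with shRela-1 numbered 6034 (39.3%) in place of 3799, and the members called between the hairpins 5 in place of 3. The block added the calls of Fadd with shRela-1 (log2 -0.24), Xiap with shRela-2 (-0.12), and Ripk3 (-0.10) and Birc3 (0.15) between the hairpins. Among the other named genes it ended the Lta calls (shRela-2 -1.48, between hairpins 1.41) and added calls of Chmp4b with shRela-1 (0.11), of Birc5 with shRela-2 (-0.34) and between the hairpins of Tnfrsf10b (0.07), Tnfrsf26 (0.51), Cycs (-0.11), Chmp4b (-0.07) and Nfkbia (0.17); it changed no other call of a member or named gene. The Ripk1 call between the hairpins was lost with no filter (-0.11, adjusted p = 0.0582), with DESeq2 (-0.11, 0.0528) and with only the 2 groups fitted (-0.11, 0.0694), within a range of adjusted p from 0.0143 to 0.132 over all alternatives. Leaving out 1 sample at a time gave, against shScr, ranges of -0.29 to -0.20 for Fadd with shRela-1, and with shRela-2 of -0.0151 to 0.0264 for Cflar, 0.10 to 0.17 for Ripk1 and -0.33 to -0.21 for Birc3. Between the hairpins the ranges were -0.161 to 0.0262 for Fadd, -0.138 to -0.0755 for Ripk1, -0.146 to -0.0804 for Ripk3, 0.11 to 0.23 for Birc3 and -0.0140 to 0.0613 for Xiap. These ranges cross 0 for Cflar, Fadd and Xiap, none of them called there, and so do those between the hairpins of Rela (range -0.0525 to 0.0201, positive without replicate 3 of shRela-1 or replicate 1 of shRela-2), Ticam1 (-0.0843 to 0.0200) and Relb (-0.0109 to 0.112). Uncalled values of named genes against shScr that also changed sign were, with shRela-1, those of Lta (-0.0911 to 0.0295), Tab1 (-0.0876 to 0.00923) and Diablo (-0.0375 to 0.0250), and with shRela-2 those of Spata2 (-0.0239 to 0.0428) and Gsdmd (-0.0367 to 0.170). Diablo with shRela-1 was also above 0 with DESeq2 size factors (0.00260), upper quartile scaling (0.00588), no filter (0.00322) and DESeq2 (0.00273). Calls that held in 17 of 17 alternatives were those of Cflar and Ripk3 with shRela-1, Casp8 with shRela-2, and Cflar and Casp8 between the hairpins. DESeq2 and limma voom, like the block, called Chmp4b with shRela-1 (0.11 each). The alternatives for pathway genes were added after the data had been seen. Among the members Fadd had the fewest counts, from 414 per sample.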
